A study of Mus musculus with 2 samples.

Results

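The 10 genes described here encode antioxidant enzymes and well-known targets of the transcription factor NRF2: Sod1, Sod2, Sod3, Cat, Gpx1, Gpx3, Nqo1, Gclc, Gclm and Txnrd1. They were taken by symbol from a table of 13138 genes, where all 10 were present, and all 10 were among the 12809 genes above the minimum used for comparisons (a mean of 50 on the count scale, which is 5.64 in log2 units). The table holds 2 RNA sequencing libraries of primary chondrocytes, the cells of cartilage, from C57Bl/6 mice, grown outside the body in dense drops called micromass cultures. The sample labelled Cre is described as an Hdac3 knockout and was given an adenovirus for Cre recombinase, which cuts out DNA between loxP sites. The sample labelled GFP is described as wild type and was given a control adenovirus for green fluorescent protein, so adenoviral transduction is common to both. The sources used here do not give the floxed allele, the age of the animals or how many animals or cultures stand behind each sample. The source name of both samples mentions an acetylation immunoprecipitation, whereas the titles, the molecule and the library kit give RNA.

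Reactive oxygen is handled in steps. Superoxide dismutases turn superoxide into hydrogen peroxide, with separate enzymes for the cytosol (Sod1), the mitochondrial matrix (Sod2) and the space outside the cell (Sod3). Catalase and the glutathione peroxidases then remove the peroxide, and the peroxidases spend glutathione, the peptide whose synthesis starts with the Gclc and Gclm enzyme. NRF2, encoded by Nfe2l2, is held low by KEAP1 and, when freed, pairs with small MAF proteins at antioxidant response elements of genes such as Nqo1, Gclc, Gclm and Txnrd1. In cartilage, SOD3 is an abundant enzyme of the matrix, and SOD2 is known in many cell types as a gene induced by inflammatory cytokines through NF-kappaB.

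With 1 library a group there is no replicate and no p-value, and every value compares these libraries and not the conditions. Values are the authors' log2 normalized counts, all differences are Cre minus GFP on that scale, and sequencing depth is unknown. Hdac3 itself stood at 10.68 in the Cre-labelled library and 10.69 in the GFP-labelled library, so its total level gave no sign of the labelled knockout. A gene total may not show the loss of part of a gene, and values by exon were not given. The knockout could therefore not be checked here, and the libraries are named by label only. The 8 chondrocyte markers were present, at log2 values of 12.20 to 20.35. All 8 were lower in the Cre-labelled library, as were 6416 of the 12809 genes compared, but Comp was close to level at -0.04. The median difference of the 8 was -0.48. The 10 macrophage and leukocyte markers were present too, at 6.04 to 14.82. Of these, 8 were higher in the Cre-labelled library (49.9% of all genes compared were). Summed on the linear scale the 10 markers were 47699 in the Cre-labelled library and 30050 in the GFP-labelled library. The ratio was 1.59, or 1.35 without Lyz2, the most abundant of them. Their median difference was 0.26. In bulk RNA, fewer cells of a type and less RNA per cell cannot be told apart.

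The antioxidant genes did not differ as a block. Sod2 and Sod3 were more than 2-fold higher in the Cre-labelled library. Gclc, Gclm and Txnrd1 were higher by 1.35-fold to 1.43-fold, Gpx3 by 1.28-fold, and Sod1, Cat, Gpx1 and Nqo1 lay within 0.12 of level on the log2 scale. Thus 2 of 10 were at least 2-fold higher, where the share over all genes compared was 0.734%, and 0 were at least 2-fold lower, where it was 0.0703%. Of the 10, 9 had a difference above 0, against 49.9% of all genes, but for Cat and Nqo1 it was 0.05 and 0.02. The median difference was 0.39 over the 10 genes and -0.00041 over all genes. The members are abundant genes, with mean log2 values of 10.35 to 12.80. Among the 4141 genes within that range, 0.966% were at least 2-fold higher and 47.5% lay above 0. The members and the lists below were chosen with earlier results of these data known. Counts set beside the shares of all genes, here and below, are therefore descriptions and no test.

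**Figure D1:**
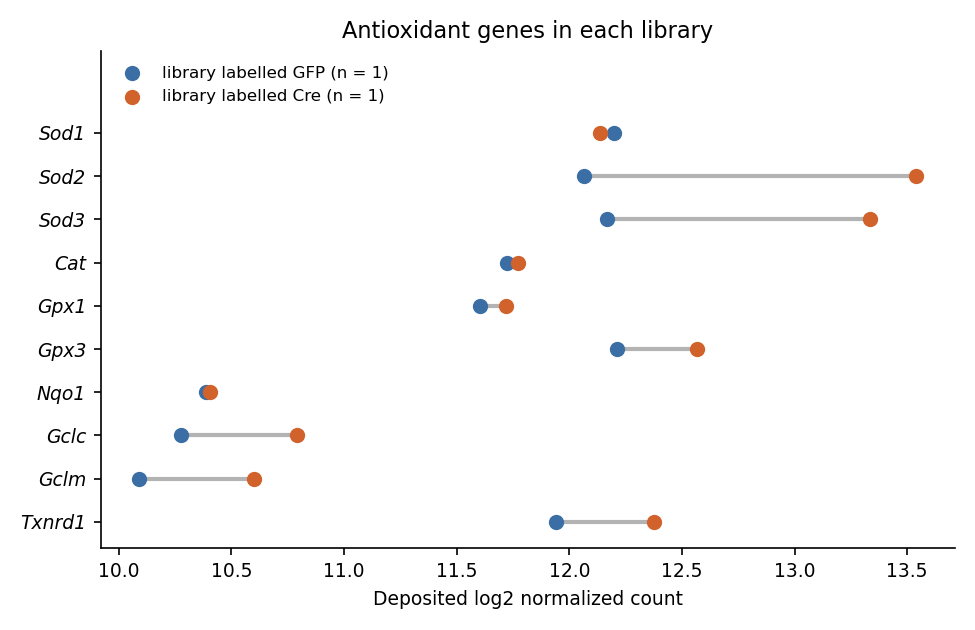
Deposited log2 normalized count (x axis) of each antioxidant gene (y axis) in the GFP-labelled library (blue) and the Cre-labelled library (orange), 1 library each, joined by a grey line. Sod2 and Sod3 show the longest lines, from 12.06 to 13.54 and from 12.17 to 13.34, while the points of Nqo1 nearly coincide.

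Of the superoxide dismutase genes, that of the mitochondrial enzyme differed most. Sod2 (chromosome 17, 13006846 to 13040063, plus strand, GRCm38) had a log2 normalized count of 13.54 in the Cre-labelled library and 12.06 in the GFP-labelled library. On the linear scale these are 11899 and 4280, a 2.78-fold difference (1.48 on the log2 scale), and 33 of the 12809 genes were higher in the Cre-labelled library by more. Sod3 (chromosome 5, 52363791 to 52371418, plus strand) had 13.34 in the Cre-labelled library and 12.17 in the GFP-labelled library. Its difference was 1.17, or 2.25-fold, and 64 genes were higher there by more. The cytosolic enzyme gene Sod1 (chromosome 16, 90220754 to 90226329, plus strand) had 12.14 in the Cre-labelled library and 12.20 in the GFP-labelled library. Sod1 was the only member below 0, at -0.06, and Ccs, which encodes the copper chaperone that loads SOD1, lay at -0.04. RNA of the cytosolic dismutase gene was therefore close to level in these libraries. RNA of the mitochondrial and matrix dismutase genes was higher in the Cre-labelled library. Protein and enzyme activity were not measured. Sod1 overlaps Scaf4 on the opposite strand, and Scaf4 differed by 0.11. The kit's name does not give strand, so their shared reads cannot be assigned.

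The Sod2 promoter is shown as that of the member with the largest difference. It runs from 250 bases before the RefSeq start to 50 after it (GRCm38.p6, chr17:13007589-13007888, plus strand, 5′ to 3′). Capitals mark matches on either strand to a loose NF-kappaB pattern (GGG, then any 5 bases, then CC).
Sod2: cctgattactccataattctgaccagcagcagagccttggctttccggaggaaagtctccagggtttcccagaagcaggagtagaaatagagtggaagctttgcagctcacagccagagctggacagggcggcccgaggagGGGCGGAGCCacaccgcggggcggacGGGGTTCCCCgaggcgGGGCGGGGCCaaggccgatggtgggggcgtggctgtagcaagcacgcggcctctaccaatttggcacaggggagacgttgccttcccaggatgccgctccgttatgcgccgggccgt
The matches begin 109, 83 and 67 bases before the start, and the middle one, GGGGTTCCCC, matches on both strands. The pattern leaves the middle bases free, so a match does not show an NF-kappaB site, and binding was not tested. Sequence outside the promoter windows was not searched for it. By gene, 53.5% of 27025 in the RefSeq table hold the pattern, as did 7 of the 8 members with a promoter there. By window 50.8% of 32851 did, as did 7 of the members' 10. The members with it include Cat and Sod1, which were close to level. The promoters of Sod3 and Gclc were not in the table.

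The genes of enzymes that remove peroxide differed less. Cat (chromosome 2, 103453849 to 103485160, minus strand), the peroxisomal catalase gene, had 11.77 in the Cre-labelled library and 11.72 in the GFP-labelled library. Gpx1 (chromosome 9, 108338903 to 108340343, plus strand), which encodes the main intracellular glutathione peroxidase, had 11.72 and 11.60, in the same order. Their differences of 0.05 and 0.12 lay well inside the spread of genes as abundant as they are. For the secreted plasma peroxidase gene Gpx3 (chromosome 11, 54902453 to 54910377, plus strand) the values were 12.57 in the Cre-labelled library and 12.21 in the GFP-labelled library. Gpx3 differed by 0.35, and 673 genes were higher by more. Other glutathione peroxidases stayed on either side of 0: Gpx4, which reduces lipid peroxides in membranes, at 0.14, and the endoplasmic reticulum enzymes Gpx7 and Gpx8 at -0.10 and -0.17. Gpx2, Gpx5 and Gpx6 were not in the table and were not analysed here.

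Gclc and Gclm, the genes of the first step of glutathione synthesis, differed by nearly the same amount. Gclc (chromosome 9, 77754535 to 77794485, plus strand) encodes the catalytic subunit of glutamate-cysteine ligase, the rate-limiting enzyme of glutathione synthesis, and had 10.79 in the Cre-labelled library and 10.28 in the GFP-labelled library. Gclm (chromosome 3, 122245557 to 122270732, plus strand) encodes its modifier subunit and had 10.60 and 10.09, in the same order. The genes of both subunits therefore differed by 0.51, or 1.43-fold for Gclc and 1.42-fold for Gclm. Of the 12809 genes, 368 were higher in the Cre-labelled library by more than Gclc and 370 by more than Gclm. Gclm overlaps the annotated transcripts Gm17494 and Gm6061, the latter a processed pseudogene, neither of which was in the table. Gss, which encodes glutathione synthetase, the next enzyme of the pathway, differed by -0.01.

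Txnrd1 (chromosome 10, 82833951 to 82897712, plus strand) encodes the cytosolic thioredoxin reductase, a selenoprotein like GPX1 and GPX3. It had 12.37 in the Cre-labelled library and 11.94 in the GFP-labelled library, a difference of 0.43 or 1.35-fold. Nqo1 (chromosome 8, 107388225 to 107403206, minus strand), the quinone reductase gene that is often used as the standard readout of NRF2, had 10.41 in the Cre-labelled library and 10.39 in the GFP-labelled library. Nqo1 was thus level to within 0.02, and 5750 genes had a higher difference. Txnrd1 overlaps Eid3 on the same strand and Gm38560 and Gm47073 on the other, none of them in the table.

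The promoters that hold the core of the antioxidant response element, TGACNNNGC, are those of Gclm, Txnrd1 and Sod1. They are shown because Gclm and Txnrd1 were higher in the Cre-labelled library and Sod1 was not. Capitals mark the match, which in all 3 lies on the opposite strand, and each window is given 5′ to 3′ from RefSeq (GRCm38.p6, plus strand). The windows are chr3:122245307-122245606 for Gclm, chr10:82858956-82859255 for Txnrd1 and chr16:90220512-90220811 for Sod1.
Gclm: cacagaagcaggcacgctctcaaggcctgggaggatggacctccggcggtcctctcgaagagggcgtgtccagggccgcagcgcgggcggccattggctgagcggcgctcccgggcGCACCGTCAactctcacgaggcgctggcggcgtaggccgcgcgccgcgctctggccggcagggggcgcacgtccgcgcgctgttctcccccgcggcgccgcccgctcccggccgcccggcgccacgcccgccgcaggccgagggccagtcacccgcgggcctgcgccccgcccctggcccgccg
Txnrd1: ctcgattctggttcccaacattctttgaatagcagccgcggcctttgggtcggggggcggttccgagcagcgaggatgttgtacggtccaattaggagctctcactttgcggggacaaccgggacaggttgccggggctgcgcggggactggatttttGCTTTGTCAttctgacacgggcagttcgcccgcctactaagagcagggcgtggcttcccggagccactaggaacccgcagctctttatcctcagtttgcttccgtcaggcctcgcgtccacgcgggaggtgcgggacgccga
Sod1: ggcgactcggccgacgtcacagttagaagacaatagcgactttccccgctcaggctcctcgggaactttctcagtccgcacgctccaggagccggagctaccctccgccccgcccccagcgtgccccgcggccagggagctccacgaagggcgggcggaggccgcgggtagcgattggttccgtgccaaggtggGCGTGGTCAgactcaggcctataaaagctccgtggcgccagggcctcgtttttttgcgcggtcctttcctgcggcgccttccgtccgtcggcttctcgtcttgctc
Read on its own strand, the match was TGACGGTGC in Gclm, TGACAAAGC in Txnrd1 and TGACCACGC in Sod1, starting 134, 92 and 56 bases before the start in the printed direction. None of the 3 overlapped the AP-1 motif TGANTCA, which can share bases with this element. By gene, 3 of 8 members with a promoter in the table held the core, where 14.0% of 27025 genes did. By window it was 3 of 10, where 12.4% of all windows did. Txnrd1 has several starts, and among its windows only that shown held the core. The letters were not found in the windows of Sod2, Cat, Gpx1, Gpx3 and Nqo1, and elements farther away were not searched.

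The size of these differences can be read against genes of like abundance. For each member, the 500 genes nearest in mean log2 value had a standard deviation of 0.22 to 0.36. Sod2 was exceeded by 5 of its 500 neighbours, Sod3 by 6, Gclm by 11, Gclc by 16 and Txnrd1 by 21. These 5 genes lay above the 95th percentile of their neighbours, which was 0.50 for Sod2 and Sod3, 0.30 for Gclm, 0.44 for Gclc and 0.40 for Txnrd1. Gpx3 lay inside that range, with 31 neighbours above it and a 95th percentile of 0.41. Gpx1, Cat, Nqo1 and Sod1 were exceeded by 77, 147, 235 and 321 neighbours. With 200 neighbours in place of 500, Txnrd1 lay at percentile 94.0 and Gpx3 at the 95th. These ranks describe the libraries and are no test.

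**Figure D2:**
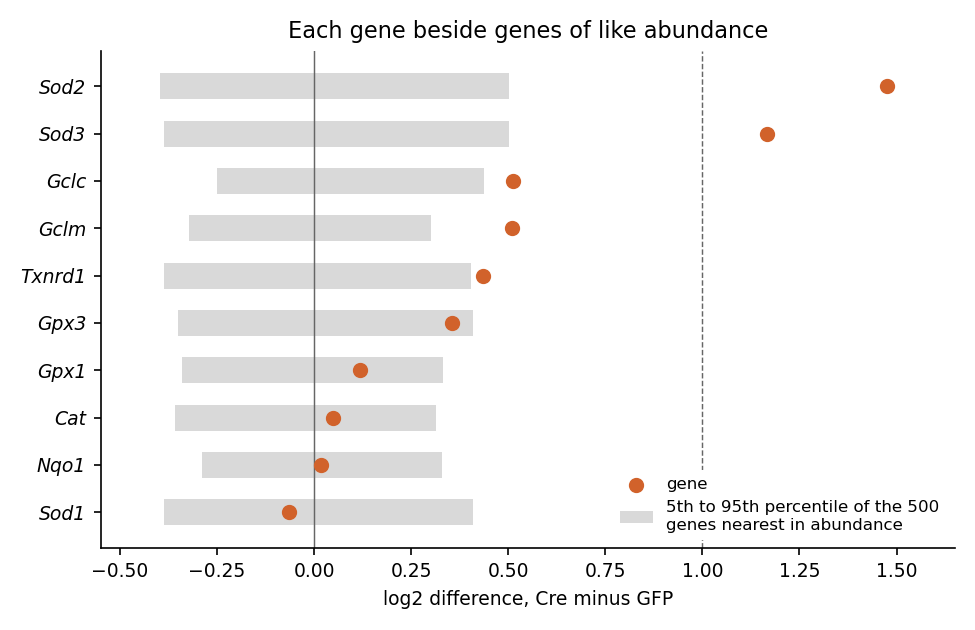
Difference in log2 normalized count, Cre minus GFP (x axis), of each antioxidant gene (orange point), with a grey bar from the 5th to the 95th percentile of the 500 genes nearest in mean log2 value; the dashed line marks 2-fold. Sod2, Sod3, Gclc, Gclm and Txnrd1 lie to the right of their bars, and Gpx3, Gpx1, Cat, Nqo1 and Sod1 inside them.

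**Figure D3:**
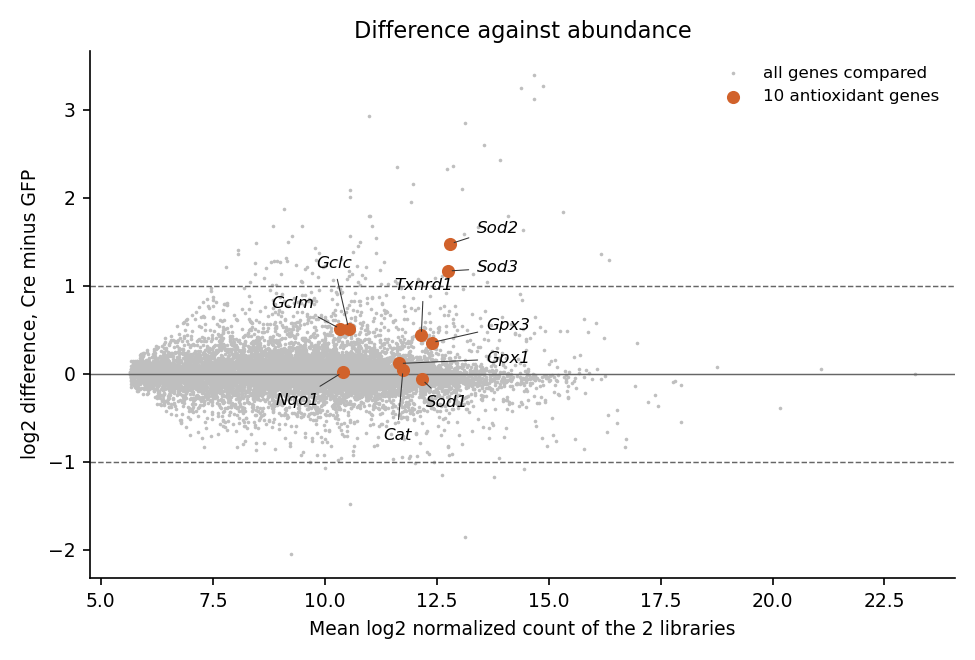
Difference in log2 normalized count, Cre minus GFP (y axis), against the mean log2 normalized count of the libraries (x axis) for 12809 genes (grey) and the antioxidant genes (orange); dashed lines mark 2-fold. The antioxidant genes lie between 10.35 and 12.80 on the x axis, and Sod2 and Sod3 stand above the upper dashed line.

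Levels of different genes were set side by side per kilobase of annotated exon. In linear normalized counts per kilobase, Sod1 was the highest of the 10 in both libraries, at 7022 in the Cre-labelled library and 7338 in the GFP-labelled library. Gpx3 and Gpx1 came next in both, and Gclc and Gclm were the lowest in both. Sod2 was at 2030 per kilobase in the Cre-labelled library and 730 in the GFP-labelled library, the fifth highest place in the one and the eighth in the other. Sod3, at 2767 and 1232 per kilobase in the same order, lay above Cat in the Cre-labelled library (1337 for Cat) and below it in the GFP-labelled library (1294 for Cat). Without replicates, neighbours in this order cannot be separated, and the lengths assume that all annotated exons are used.

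Other NRF2 targets leaned the same way as Gclc, Gclm and Txnrd1, with a wide range. Of 32 genes listed, 31 were compared, 26 had a difference above 0, where 49.9% of all genes did, and the median was 0.20. At least 2-fold higher were 3 of them (0.734% of all genes), and 0 were lower by that much (0.0703%). Those past 2-fold were Fth1, the ferritin heavy chain gene, at 1.29 (16.99 in the Cre-labelled library and 15.70 in the GFP-labelled library), Slc7a11, the cystine importer that feeds glutathione synthesis, at 1.02 (11.78 and 10.76), and Gsr, the glutathione reductase gene, 2.01-fold higher (11.29 and 10.29). Fth1 has processed pseudogenes that can share its reads, so its value is uncertain. Hmox1, which encodes the haem-degrading enzyme heme oxygenase 1, differed by 0.54, with 13.34 in the Cre-labelled library and 12.80 in the GFP-labelled library. Srxn1, the sulfiredoxin gene, differed by 0.73, from 10.95 in the GFP-labelled library to 11.68 in the Cre-labelled library. Several listed targets were level or lower, among them Me1 (malic enzyme 1) at -0.02, Gstm1 at -0.07 and the retinal dehydrogenase gene Aldh1a1 at -0.55; these were picked after their values were seen. Of the NADPH-producing pentose phosphate enzymes, Pgd differed by 0.48 and G6pdx by 0.13.

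Genes that control NRF2 differed by little at the median, while Maff, Bach1 and Mafg were higher by more. Of 17 compared, 10 had a difference above 0 (49.9% of all genes did), and the median was 0.08. Of the 17, 1 was at least 1.5-fold higher (2.25% of all genes were), and 0 were lower by as much (0.952% were). Nfe2l2 itself had 12.05 in the Cre-labelled library and 11.85 in the GFP-labelled library, a difference of 0.21. Keap1, the adaptor that sends NRF2 for degradation, had 11.10 and 11.00. Maff and Mafg, which encode small MAF partners, differed by 0.61 and 0.34, and Bach1, the repressor that competes for the same elements, by 0.36. Transcript levels of these genes do not give the amount or activity of NRF2 protein, which was not measured.

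The wider glutathione and thioredoxin lists share members with the list of NRF2 targets, namely 5 of 25 and 3 of 19 genes, so their counts are not separate results. In the list of glutathione synthesis, recycling and transferase genes, 16 of 25 were above 0, where 49.9% of all genes were. The median of this list was 0.07. Gsr and Slc7a11 led it, followed by the transferase gene Gstt1 at 0.71 (8.91 in the Cre-labelled library and 8.20 in the GFP-labelled library). At the other end, Chac1, which encodes an enzyme that breaks glutathione down, was at -0.56; it was named after its value was seen. Among peroxiredoxin, thioredoxin and glutaredoxin genes, 11 of 19 were above 0 (49.9% of all genes were), with a median of 0.03. Glrx, which encodes the cytosolic glutaredoxin 1, differed by 0.87 (11.49 in the Cre-labelled library and 10.62 in the GFP-labelled library), Srxn1 by 0.73 and the abundant peroxiredoxin gene Prdx1 by 0.46. Txn1, the thioredoxin that TXNRD1 recharges, differed by 0.32, and the thioredoxin inhibitor gene Txnip was level, at 11.90 in both libraries.

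The selenoprotein list was level at its median, and Dio2 differed most. Of 15 genes of selenoprotein synthesis and other selenoproteins, 7 were above 0, where 49.9% of all genes were. Their median of -0.00044 became 0.0072 when the libraries were scaled to equal totals. Dio2, the deiodinase gene that activates thyroid hormone, differed by 0.79, while Pstk, needed to make selenocysteine, was at -0.21 and the deiodinase gene Dio3 at -0.15.

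Genes of enzymes that produce oxidants ranged from -0.14 for Nos3, the endothelial nitric oxide synthase gene, to 0.83 for Xdh. Of 9 compared, 8 had a difference above 0 (49.9% of all genes did), the median was 0.39, 2 were at least 1.5-fold higher (2.25% of all genes were) and 0 reached 2-fold. Xdh, which encodes xanthine oxidoreductase, differed by 0.83, with 11.01 in the Cre-labelled library and 10.18 in the GFP-labelled library. For the superoxide-making phagocyte NADPH oxidase, 4 subunit genes were grouped after their values were seen, and they ran from 0.39 for Ncf1 to 0.61 for Cybb, with Cyba at 0.44 and Ncf4 at 0.47. The macrophage and leukocyte markers ranged more widely, from -0.73 to 1.08. Emr1, which encodes the macrophage surface protein F4/80, differed by 1.08, Cd14 by 1.04 and Lyz2 by 0.84, while Ptprc, Tyrobp and Aif1 lay from 0.22 to 0.26, Csf1r at 0.08, Cd68 at -0.05 and the mannose receptor gene Mrc1 at -0.73. The part of these cells in the values of the oxidase genes, or of Sod2 and the other antioxidant genes, was not tested. Nox4, the oxidase of many non-immune cells, was low and level, at 6.83 in the Cre-labelled library and 6.79 in the GFP-labelled library, and Nos2 was not analysed here.

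**Figure D4:**
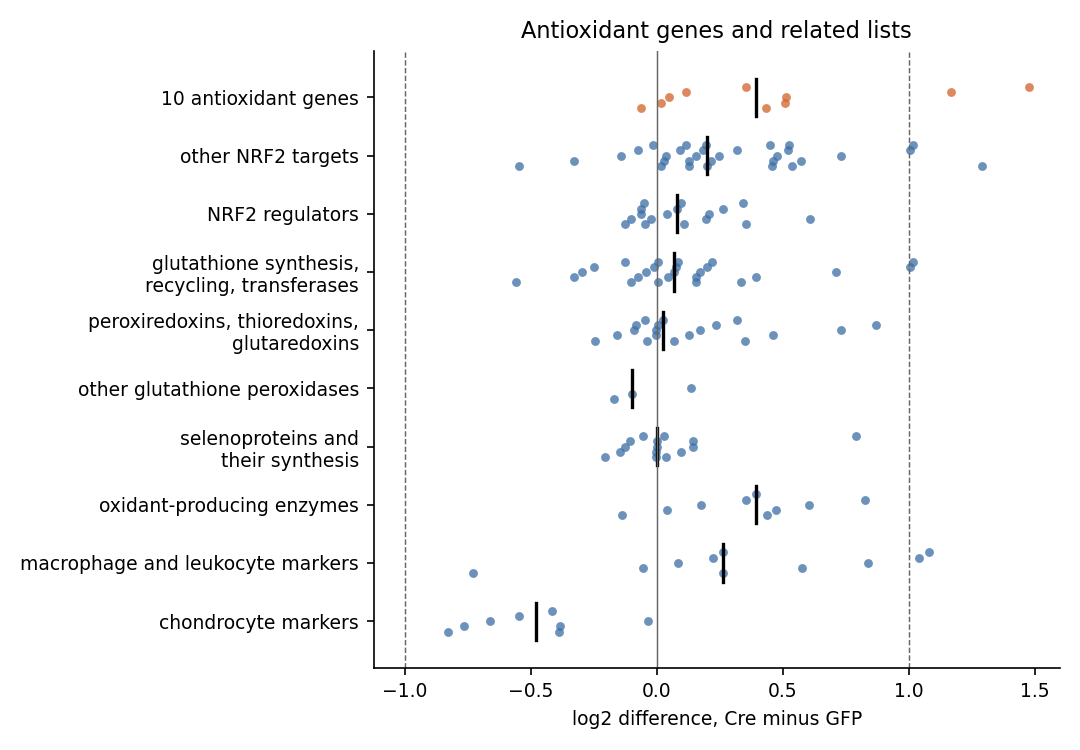
Difference in log2 normalized count, Cre minus GFP (x axis), of every compared gene in the antioxidant set (orange) and in related or marker lists (blue), 1 row per list, with a black bar at the median; dashed lines mark 2-fold and vertical scatter within a row has no meaning. The medians run from -0.48 for chondrocyte markers to 0.39 for the antioxidant genes and for the oxidant-producing enzymes, with 0.20 for other NRF2 targets.

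Over all 112 related genes other than the 10, counted once each, 73 had a difference above 0, where 49.9% of all genes did. Their median was 0.08. Past 1.5-fold lay 10 on the higher side and 0 on the lower. Over all 12809 genes the shares past 1.5-fold were 2.25% higher and 0.952% lower. Endothelial markers (4 compared), muscle markers (4) and the 1 erythroid marker compared stayed below a log2 value of 9 in both libraries, with median differences of 0.07, 0.23 and 0.03. Fibroblast and perichondrial markers lay at log2 values of 9.21 to 17.39. Their differences ran from -0.32 for Col1a2 to 0.43 for Pdgfra, with a median of -0.07 over 6 genes.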

How the data were processed

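RNA was sequenced from 1 Cre and 1 GFP library (TruSeq v2 mRNA, per the labels). Reads were processed with TopHat2 2.0.6, bcl2fastq 1.8.4 and HTSeq on mm10, per the submitters' processing notes; the sources used here give no annotation or strand setting. The deposited table holds log2 normalized counts of 13138 genes, with their mean and difference. The difference equals GFP minus Cre in all 13138 rows and was turned round here. Its heading, rLogFC, points to a regularized log, which would understate differences, above all of genes with few reads. This is inferred, and how far the differences of the members were affected is not known. No counts were given, so depth is unknown and no counting interval can be given. A fold is 2 to the power of the log2 difference, with no pseudocount. Genes were compared where their mean reached 50 on the count scale.

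Counts use 2-fold, and each member was ranked among the 500 genes nearest in mean log2 value. This ranking was run on simulated data with large planted changes and the same spread at every abundance. That simulation did not test the matching by abundance or smaller differences. Alternatives were scalings, minimums of none and 500, 1.5-fold, the mean, and 200 or 1000 neighbours. Named were the 10 members, the 3 largest absolute differences of each related list, a set fixed by name, and some genes picked after their values were seen (Gss, Chac1, Me1, Gstm1, Aldh1a1, Pgd, G6pdx, Ncf1, Ncf4, Nos3 and the markers Mrc1, Csf1r, Cd68, Ptprc, Tyrobp and Aif1, and Scaf4 for its overlap). The members and lists were chosen with earlier results of these data known. Coordinates and exon lengths (union of basic transcripts) come from GENCODE M21 on GRCm38, promoters from RefSeq GRCm38.p6, which held 8 of the 10 members. Protein features had been planned but were not analysed here, and 1 gene of the related lists is not reported here. Python 3.11.15, pandas 2.3.3 and NumPy 2.4.6 were used.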

Additional observations from a re-analysis of the deposited data

How the results depend on the processing

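The minimums and scalings could not have moved a member across 2-fold. Gclm, the least abundant member, had 1555 in the Cre-labelled library and 1091 in the GFP-labelled library on the linear scale. The differences nearest the 2-fold line were 1.17 for Sod3 and 0.51 for Gclc. So the number at least 2-fold higher stayed at 2 and the number 2-fold lower at 0 under these settings. With a 1.5-fold threshold the numbers were also 2 and 0, where the shares over all genes compared were 2.25% and 0.952%. The scalings added 0.00041 (median of 0), 0.0077 (equal totals) and 0.015 (such totals leaving out Rn45s and Lars2) to every difference, which turned the sign of no member. The median over the 10 members became 0.46 when the mean was used instead. For the peroxiredoxin, thioredoxin and glutaredoxin list, the mean was 0.14 against a median of 0.03, since Glrx and Srxn1 lie far above its other members; the other 47 alternative values for related lists stayed within 0.1. The selenoprotein list, at -0.00044, turned above 0 under both scalings to equal totals, at the minimum of 500 and by its mean (0.039). With 200, 500 or 1000 neighbours, Txnrd1 ranged over percentiles 94.0 to 96.3, Nqo1 over 53.0 to 56.5 and Gpx3 from 93.6 to the 95th, so on which side of the 95th percentile Txnrd1 and Gpx3 lie depends on that number. Leaving out Lyz2, chosen after seeing the data, moved the ratio of the summed macrophage and leukocyte markers from 1.59 to 1.35. Pseudocounts and replicate tests were not run on these log2 values. No paired analysis was possible because there is 1 library a group.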
